A study of Mus musculus with 14 samples.

Results

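The protein genes of the cytosolic ribosome were followed in the ventricles of mice with and without pressure overload, all given a gene therapy vector that carried JP2NT or, as control, GFP. They were taken by symbol from the gene table: every row beginning Rpl or Rps and a digit, and Rplp0 to Rplp2, without the kinases named Rps6k. This gave 94 of 24972 rows. By symbol, 76 of them are core subunits (43 of the 60S subunit, 30 of the 40S subunit and 3 of the stalk), 11 are paralogues, 6 are pseudogene rows, and Rps19bp1 matched by name but is no ribosomal protein. Of the rows classed as paralogues by symbol, GENCODE lists Rpl32l, Rpl37rt and Rps4l as pseudogenes. A row was tested if 3 or more samples had a value of 10 or more, and 86 rows passed, 75 of them core. The 8 rows that did not pass were at 15.6 or lower in every library. They were Rps27, the paralogues Rpl10l, Rpl32l and Rpl39l, and the pseudogene rows Rpl31-ps12, Rps15a-ps4, Rps15a-ps6 and Rps19-ps3. Rpl10l was at 0 in all 14 libraries.

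Polyadenylated RNA came from ventricles of male C57BL/6N mice operated at 9 to 10 weeks of age, and was collected 8 weeks after surgery. Transverse aortic constriction (TAC) loads the left ventricle with pressure, and sham surgery is its control. Ultrasound at 2 weeks selected 30 TAC mice with an ejection fraction of 40 to 60% and 10 sham mice with normal function, so the TAC hearts are a selected group. AAV2/9 was then given by tail vein, carrying GFP as control or JP2NT, an N-terminal fragment of the membrane protein junctophilin-2; every mouse, shams included, therefore carried a vector. The groups were TAC+JP2NT (4 libraries), TAC+GFP (4), Sham+JP2NT (3) and Sham+GFP (3). Replicates 1 and 2 of Sham+JP2NT were closer to each other than any other pair within a group: over genes with at least 50 reads the variance between them was 1.33 times that of counting, against 2.39 to 28.5 times in the other 17 pairs. They were averaged and taken as 1 sample, so that 13 samples entered the fit and Sham+JP2NT had n = 2. The labels do not say that each library is a separate mouse, and the p-values measure the spread between these libraries.

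A ribosome joins a small 40S subunit, which decodes the mRNA, and a large 60S subunit, which forms the peptide bond and extrudes the new chain. Each subunit holds ribosomal RNA and most core proteins once, so the core genes are transcribed at similar high rates in most cells. Their mRNAs usually begin with a cytosine followed by a run of pyrimidines, the 5′ terminal oligopyrimidine or TOP tract, through which LARP1 and the kinase complex mTORC1 control their translation. Adult heart and skeletal muscle are known for a paralogue, RPL3L, that takes the place of RPL3 in part of the ribosomes. RPL3 reaches with an extension close to the peptidyl transferase centre.

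The sequence around the RefSeq start site (mouse build GRCm38.p6, the assembly of mm10) is shown for 4 of the 60S genes with the steepest rise in TAC hearts and for the 2 members that were lower there under both vectors, since the tract lies at this place. Each window holds 20 bases before the start and 20 from it, 5′ to 3′, with the longest run of C and T in capitals, and the first of them where 2 are equally long.
Rpl13a, chr7:45128726-45128765, minus strand: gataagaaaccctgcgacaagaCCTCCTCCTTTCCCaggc
Rpl12, chr2:32961692-32961731, plus strand: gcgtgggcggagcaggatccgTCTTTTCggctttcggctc
Rpl39, chrX:37085203-37085242, minus strand: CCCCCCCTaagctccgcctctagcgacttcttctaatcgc
Rpl41, chr10:128549149-128549188, minus strand: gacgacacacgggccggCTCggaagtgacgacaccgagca
Rps2, chr17:24720043-24720082, plus strand: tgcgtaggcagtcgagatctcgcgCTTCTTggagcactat
Rpl3l, chr17:24727806-24727845, plus strand: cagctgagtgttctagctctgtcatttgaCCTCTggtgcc
The run was 14 bases long in Rpl13a, 8 in Rpl39, 7 in Rpl12, 6 in Rps2, 5 in Rpl3l and 3 in Rpl41. Rpl39 holds a second run of 8 after its start, which is left in lower case. The genes with the steepest TAC differences thus had long, medium and short runs within 20 bases of the annotated start. The annotated first base was C in Rps2, T in Rpl39 and G in Rpl13a, Rpl12, Rpl41 and Rpl3l. In Rpl39 and Rpl41 the run in capitals lies before that start. The length of a run is therefore not a measured length of the TOP tract, and a short run does not show that the tract is missing.

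The next sequences show how far the 2 partners of the paralogue comparison differ. They are the first 60 coding bases of each gene (GENCODE M21), with the bases that differ between partners in capitals.
Rpl3l, chromosome 17: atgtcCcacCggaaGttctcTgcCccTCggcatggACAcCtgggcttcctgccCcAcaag
Rpl3, chromosome 15: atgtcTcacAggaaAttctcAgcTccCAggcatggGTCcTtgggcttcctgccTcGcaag
Rpl3l and Rpl3 differed at 13 of these 60 bases, and at 303 of 1202 aligned coding bases over their whole length, an identity of 74.8%. Their reads can therefore be told apart. The opposite case is Rps27rt, a retrotransposed gene, and Rps27.
Rps27rt, chromosome 9: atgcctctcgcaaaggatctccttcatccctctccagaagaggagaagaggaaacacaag
Rps27, chromosome 3: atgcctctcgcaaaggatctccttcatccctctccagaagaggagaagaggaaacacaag
These 2 genes differed at 0 of 252 coding bases, so reads from their coding sequence cannot be told apart.

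The libraries held an estimated 8650188 to 14460617 reads. Core ribosomal protein genes took 2.22 to 3.07% of the total in TAC+JP2NT, 2.77 to 3.14% in TAC+GFP, with 2.09 to 2.10% in Sham+JP2NT and 2.07 to 2.10% in Sham+GFP. All 8 TAC libraries were thus above all 6 sham libraries in this share. A share of the total also depends on the other genes. After joint rescaling, the median core gene of TAC+JP2NT replicate 3 was below all shams, so the separation does not hold there. Myh6, the adult myosin heavy chain, took 1.75 to 3.07% in TAC+JP2NT, 1.32 to 1.86% in TAC+GFP, with 4.23 to 4.37% in Sham+JP2NT and 3.93 to 4.26% in Sham+GFP. In RNA of whole ventricles, fewer cells of a type and less RNA per cell cannot be told apart. Below, a value is the deposited signal after joint rescaling of the 14 libraries, and a log2 difference is a difference of mean log2(value + 1).

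The first comparison asks what overload did under the control vector. Most ribosomal protein genes were higher in TAC+GFP than in Sham+GFP hearts, and few were lower. Of the 86 members tested, 54 rose and 2 fell (limma, Benjamini-Hochberg adjusted p under 0.05 over all genes). Of all 13211 genes tested 48.3% were called, 23.1% higher and 25.2% lower. Among core genes 50 of 75 rose, which is 66.7%, and Rps2 alone fell. The median log2 difference of the core genes was 0.34, against -0.01 for all genes tested. It ranged from 0.34 to 0.44 over the 5 scalings tried, and was positive in each. In 62 of the 86 members every TAC+GFP library was above every Sham+GFP library, as in 25% of all genes tested, in 2 every TAC+GFP library was below, as in 28.2% of all genes, and in 22 the libraries overlapped.

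**Figure D1:**
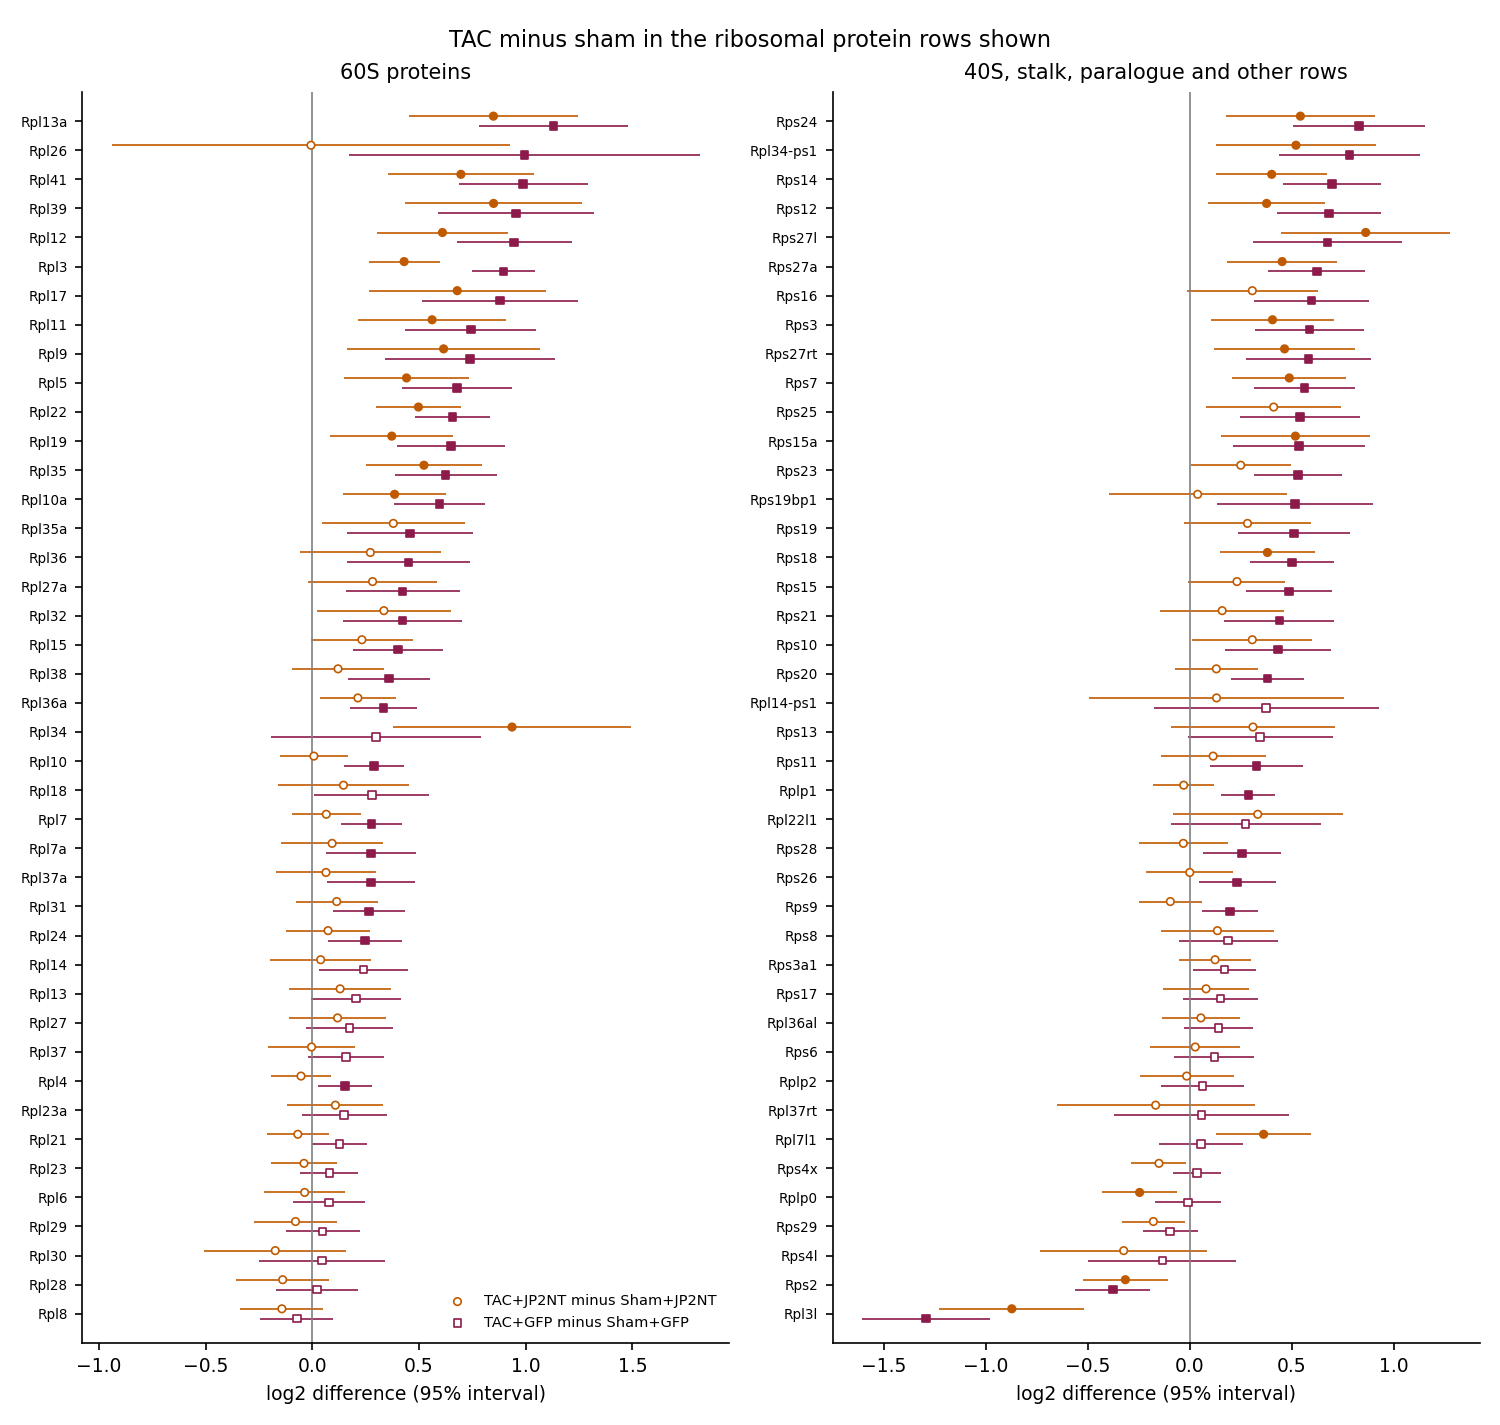
Log2 difference of TAC minus sham, with its 95% interval from limma, for 84 of the 86 members tested, the 60S proteins on the left and all other rows on the right, ordered by the difference under GFP. Circles are TAC+JP2NT minus Sham+JP2NT and squares TAC+GFP minus Sham+GFP, filled where the adjusted p was under 0.05; most rows lie right of 0, Rps2 and Rpl3l lie left of it under both vectors, and Rpl3l lies lowest.

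In the 60S subunit 28 of 43 genes rose in TAC+GFP and none fell. By the unadjusted p under 0.05 (limma) there were 30, none of them lower. Of all 13211 genes tested 7234 passed that threshold in either direction. Rpl13a, which in human cells also serves in a complex that silences inflammatory mRNAs, stood at 9066, 9747, 12194 and 8204 in the TAC+GFP libraries, against 4460, 4393 and 4441 in Sham+GFP. Every TAC library was thus well above the shams, which lay close together. The log2 difference was 1.13 (SE 0.163, adjusted p = 6.61e-05), a 2.19-fold rise. Rpl41, a very short basic peptide at the bridge between the subunits, had 6161, 6362, 7735 and 6563 in TAC+GFP libraries, against 3386, 3521 and 3198 in Sham+GFP (log2 difference 0.99, SE 0.141, adjusted p = 6.01e-05). Rpl39, a small protein that lines the exit tunnel, had 1917, 2044, 2226 and 1573 in TAC+GFP libraries, against 961, 1000 and 1017 in Sham+GFP (log2 difference 0.95, SE 0.172, adjusted p = 0.000402). Rpl12, at the base of the stalk, rose by 0.95 on the log2 scale (SE 0.127, adjusted p = 3.62e-05). In each of these genes the TAC and sham libraries did not overlap. Rpl5 and Rpl11, which carry the 5S RNA into the 60S subunit and can bind MDM2, rose by 0.68 and 0.74. At the other end Rpl8 had 4275 ± 111 in TAC+GFP (SD, n = 4) and 4497 ± 89.8 in Sham+GFP (n = 3) and was not called (log2 difference -0.07, adjusted p = 0.474).

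In the 40S subunit 21 of 29 genes tested rose in TAC+GFP and 1 fell. Rps24 rose most among them, with 5639, 6339, 7816 and 5375 in TAC+GFP libraries, against 3570, 3666 and 3285 in Sham+GFP (log2 difference 0.83, SE 0.152, adjusted p = 0.00045). Rps2, which lines the mRNA entry channel, was the 1 that fell. It had 9325, 8873, 8965 and 8649 in TAC+GFP libraries, against 12054, 11394 and 11433 in Sham+GFP (log2 difference -0.38, SE 0.0861, adjusted p = 0.00234). All TAC+GFP libraries were thus below all Sham+GFP libraries. Rps2 was also the core gene with the highest Sham+GFP value per kilobase of transcript, 11650, where the 75 core genes tested had a median of 4237. An antisense gene, Snhg9, lies within the span that GENCODE gives Rps2, but before the RefSeq start printed above. Whether strand was used in the counting is not given in the sources used here. Reads of the 2 may therefore be mixed, but only in the part before that start. Rps6, the classic target of the S6 kinases, had 4618 ± 327 in TAC+GFP (n = 4) and 4241 ± 68.6 in Sham+GFP (n = 3) and was not called (adjusted p = 0.296).

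Of the stalk, which recruits the elongation factors, 1 of 3 genes rose. Rplp1, which encodes a flexible acidic protein, had 4250, 4500, 4645 and 4867 in TAC+GFP libraries, against 3839, 3716 and 3658 in Sham+GFP (log2 difference 0.29, SE 0.0618, adjusted p = 0.00153). Rplp0, the stalk's base, had 10551 ± 365 in TAC+GFP (n = 4) and 10619 ± 127 in Sham+GFP (n = 3), a log2 difference of -0.01 with a 95% interval from -0.17 to 0.15. Rplp2 differed by 0.06, with a 95% interval from -0.14 to 0.27. Whether stalk genes differ from the other core genes was not tested.

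Cell type markers moved in the same comparison. The summed value of 8 cardiomyocyte markers was 597212 to 705572 in TAC+GFP libraries, against 1069691 to 1113708 in Sham+GFP, and 5 of the 8 genes fell. Myh6 is 1 of the 8, with 1.32 to 1.86% of the library total in TAC+GFP and 3.93 to 4.26% in Sham+GFP. Part of the fall of this sum is thus that of Myh6. The summed value of 8 macrophage markers was 4886 to 6159 in TAC+GFP and 4749 to 5052 in Sham+GFP, with 0 genes higher and 1 lower, and that of 8 fibroblast markers 23805 to 29445 in TAC+GFP and 23775 to 27838 in Sham+GFP, with 4 higher and 1 lower. The sum of 5 red cell markers was 15957 to 22146 in TAC+GFP and 6865 to 8482 in Sham+GFP, with 3 of the 4 genes tested higher. The sum of 6 pericyte and smooth muscle markers was 9238 to 11347 in TAC+GFP and 14575 to 15624 in Sham+GFP, with 4 lower, and that of 7 endothelial markers 14963 to 17721 in TAC+GFP and 17899 to 19280 in Sham+GFP, with 1 higher and 3 lower. The 7 lymphocyte markers summed to 105 to 154 in TAC+GFP and 63 to 80 in Sham+GFP, and the T cell genes Cd3e and Cd3g were at 0 in some libraries. The 6 skeletal muscle markers summed to 47044 to 100009 in TAC+GFP and 48052 to 52754 in Sham+GFP. Only 2 of them were tested, with 1 higher and 1 lower. Myh1, Myh2 and Tnnt3 were at 0 in some libraries and Myh4 in all, while Acta1 and Ckm were above 0 in each. This sum need not reflect skeletal muscle. The part of these shifts in the ribosomal protein differences was not tested.

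Under JP2NT the same comparison called fewer members. TAC+JP2NT against Sham+JP2NT gave 26 higher and 4 lower of 86 members, where 32.2% of all genes were called, 15.4% higher and 16.8% lower. Among the core genes 22 of 75 rose and 3 fell, and their median log2 difference was 0.14, against -0.01 for all genes. In 28 members all 4 TAC+JP2NT samples were above both Sham+JP2NT samples, as in 23.2% of all genes tested, in 6 they were below, as in 26.4% of all genes, and in 52 they overlapped. The call count fell to 9 (8 higher, 1 lower) with only these 2 groups in the fit and to 8 without Sham+JP2NT replicate 3, which leaves 1 sham sample. The share of all genes called in these fits was not set beside the counts. Scaled to the library total 42 members were higher and 1 lower. There 22.4% of all genes were higher and 9.84% lower, and the median of all genes was 0.11.

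Markers moved in this comparison too. The cardiomyocyte sum was 666976 to 864108 in TAC+JP2NT and 1068562 to 1081650 in Sham+JP2NT, with 4 genes lower. Endothelial markers summed to 14221 to 16631 in TAC+JP2NT and 16371 to 17747 in Sham+JP2NT, with 3 lower, and pericyte and smooth muscle markers to 12186 to 14493 in TAC+JP2NT and 15423 to 16573 in Sham+JP2NT, with 2 lower. Fibroblast markers summed to 26429 to 29994 in TAC+JP2NT and 28731 to 32321 in Sham+JP2NT, with 1 higher and 1 lower, and macrophage markers to 3644 to 6851 in TAC+JP2NT and 4455 to 4780 in Sham+JP2NT, with none called. Red cell markers summed to 7825 to 18725 in TAC+JP2NT and 8659 to 10075 in Sham+JP2NT, with 1 higher. Skeletal muscle markers summed to 68765 to 86340 in TAC+JP2NT and 45735 to 48579 in Sham+JP2NT, with 1 higher and 1 lower of the 2 tested. Lymphocyte markers summed to 47 to 147 in TAC+JP2NT and 84 to 109 in Sham+JP2NT. Their part in the ribosomal protein differences was not tested.

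The members that rose under JP2NT were mostly those that rose under GFP. Of the 26 genes higher under JP2NT, 24 were also among the 54 higher under GFP, which is 92.3% of the first list and 44.4% of the second. The remaining ones were Rpl34, whose sum with a near-identical copy rose under both vectors as given further on, and Rpl7l1. With only these groups in the fit neither was called (adjusted p = 0.0521 and 0.0635), nor without Sham+JP2NT replicate 3 (adjusted p = 0.215 and 0.0818), where 1 sham sample is left and takes its spread from the other groups. Rpl13a had 10269, 5965, 6300 and 8847 in TAC+JP2NT libraries, against 4367, 4309 and 4152 in Sham+JP2NT (log2 difference 0.85, SE 0.185, adjusted p = 0.00366). Rpl39 had 2403, 1444, 1214 and 1817 in TAC+JP2NT libraries, against 927, 904 and 930 in Sham+JP2NT (log2 difference 0.85, SE 0.195, adjusted p = 0.00485). In both genes replicates 1 and 4 of TAC+JP2NT stood highest and replicates 2 and 3 lowest, all above the shams. Rpl41 rose by 0.70 (SE 0.16, adjusted p = 0.00492). Across the 75 core genes the log2 differences under the 2 vectors, which share no library, had a Pearson correlation of 0.84 and a Spearman correlation of 0.88. This is a description over genes of the same libraries, and genes are not independent.

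**Figure D2:**
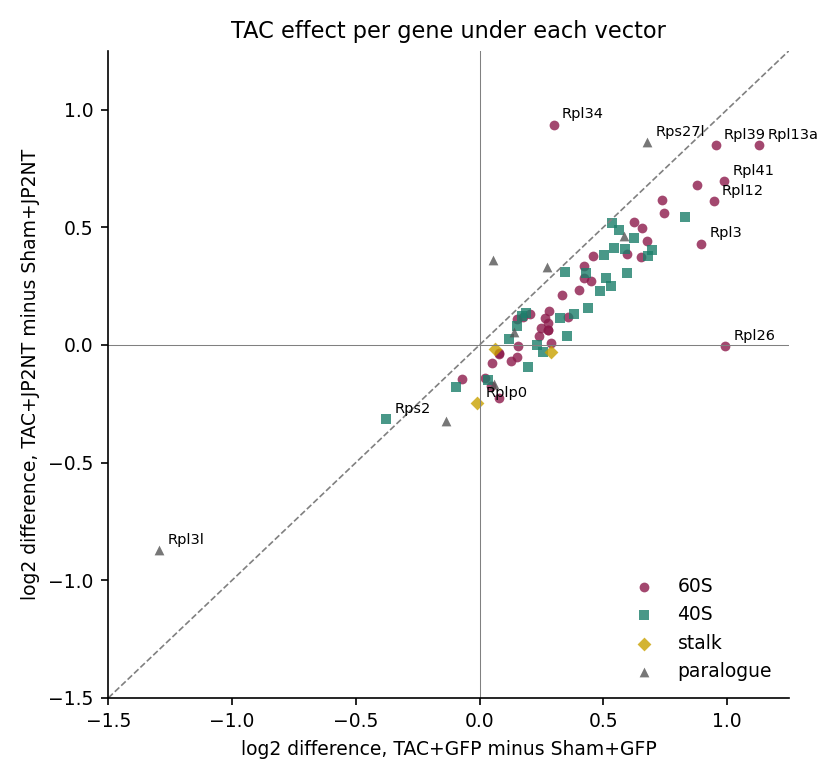
Log2 difference TAC+JP2NT minus Sham+JP2NT (vertical axis) against TAC+GFP minus Sham+GFP (horizontal axis) for the core and paralogue genes tested, with equality as a dashed line. Most points lie below the line, with Rpl34 and Rps27l above it, Rpl26 far below it at 0.99 under GFP, and Rpl3l at -0.87 under JP2NT and -1.29 under GFP.

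Among the 4 members lower in TAC+JP2NT than in Sham+JP2NT were Rpl3l, Rps2 and Rplp0. Rps2 had 10269, 9168, 7517 and 8362 in TAC+JP2NT libraries, against 10618, 10913 and 11074 in Sham+JP2NT (log2 difference -0.32, SE 0.0977, adjusted p = 0.0237). All 4 TAC libraries were below the shams, replicate 1 by little. Rplp0 was at 9048 ± 964 in TAC+JP2NT (n = 4) and 10685 ± 157 in Sham+JP2NT (n = 2; log2 difference -0.25, adjusted p = 0.0419). The Rps2 call was lost in 3 alternatives: scaled to the library total (adjusted p = 0.139), with only these groups in the fit (adjusted p = 0.0971), and without Sham+JP2NT replicate 3 (adjusted p = 0.148), which leaves the lone sham sample. The Rplp0 call was lost in 13 alternatives, 8 of them leaving out 1 library, with values as deposited among them (adjusted p = 0.0527), and its adjusted p reached 0.26 scaled to the library total.

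In overloaded hearts, the effect of JP2NT was read from the TAC groups. Some ribosomal protein genes were lower with JP2NT, by small amounts and not in every library. The comparison of TAC+JP2NT with TAC+GFP gave 10 lower and 0 higher of 86 members, where 6.21% of all genes were called, 2.7% higher and 3.5% lower. All 75 core genes had a negative difference, with a median of -0.19, against 0 within rounding for all genes. That median lay between -0.27 and -0.15 over the 5 scalings tried, negative in each. In 14 members all TAC+JP2NT libraries were below all TAC+GFP libraries, as in 5.52% of all genes tested, in 0 they were above, as in 5.13% of all genes, and in 72 they overlapped. As far as the values show, the authors' scaling treated each vector apart. Values taken as deposited gave 30 lower. With these values 9% of all genes were lower and 1.71% higher, and the median of all genes was -0.08. The count was 6 (1 higher, 5 lower) scaled to the library total, where 4.09% of all genes were higher and 2.2% lower, 1 with only these groups in the fit, and 2 with replicates 1 and 2 of each TAC group averaged. It was 23 without TAC+JP2NT replicate 1, 5 without TAC+JP2NT replicate 2, and 3 without TAC+GFP replicate 1 or without TAC+GFP replicate 2. For the fits that changed the samples, the share of all genes called was not set beside these counts. A change particular to these members therefore cannot be told from a change over all genes.

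Between the TAC groups the pericyte and smooth muscle sum was 12186 to 14493 in TAC+JP2NT, against 9238 to 11347 in TAC+GFP, without overlap, with 1 of 6 genes higher. The cardiomyocyte sum was 666976 to 864108 in TAC+JP2NT, against 597212 to 705572 in TAC+GFP, with 1 higher, and the endothelial sum 14221 to 16631 in TAC+JP2NT, against 14963 to 17721 in TAC+GFP, with 1 lower. No gene of the other marker lists was called by the adjusted p here. Their part in the differences between the TAC groups was not tested.

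Libraries of TAC+JP2NT differed among themselves in these genes. Relative to the Sham+GFP mean, the median core gene was at 0.42, 0.07, -0.11 and 0.25 on the log2 scale in TAC+JP2NT replicates 1 to 4, at 0.32, 0.37, 0.43 and 0.27 in the TAC+GFP libraries, and at -0.02, -0.02 and -0.03 in Sham+JP2NT. TAC+JP2NT replicate 1 was thus within the range of the TAC+GFP libraries, and replicate 3 was below the shams. Across members the median SD of log2 values was 0.235 in TAC+JP2NT and 0.111 in TAC+GFP, where over all genes tested it was 0.177 in TAC+JP2NT and 0.158 in TAC+GFP. The red cell marker sum was 18725, 17829, 7825 and 11680, and the macrophage sum 6851, 6721, 4931 and 3644, in TAC+JP2NT replicates 1 to 4. Cardiomyocyte sums were 691905, 666976, 667857 and 864108 in the same order. Their part in the spread was not tested.

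**Figure D3:**
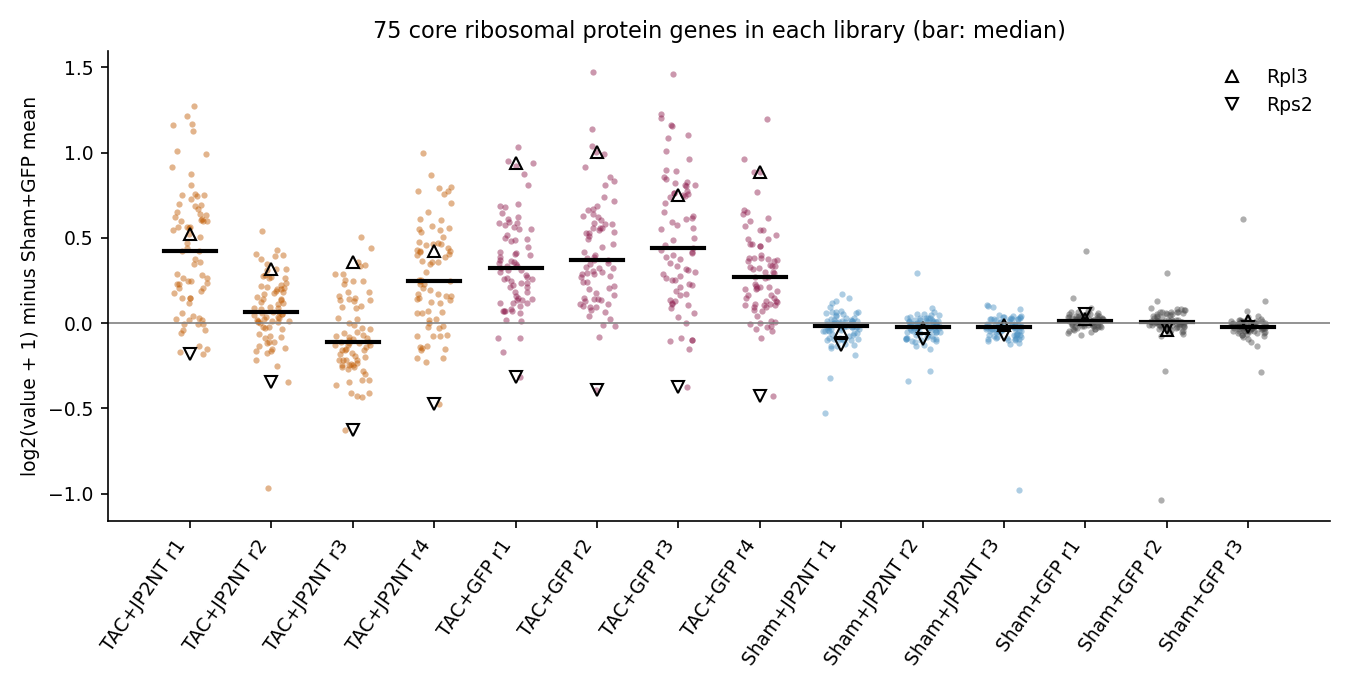
Log2(value + 1) minus the Sham+GFP mean for the 75 core genes tested (points) in each of the 14 libraries, with the median as a bar and Rpl3 and Rps2 as open triangles. The medians of the sham libraries lie between -0.03 and 0.01, those of TAC+GFP between 0.27 and 0.43, and those of TAC+JP2NT between -0.11 and 0.42, with Rpl3 above and Rps2 below the median in all 8 TAC libraries.

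The members lower with JP2NT in TAC hearts lay in both subunits and the stalk. Rpl3 had the steepest difference among those called, given with its paralogue further on. Of the 40S genes Rps28 and Rps26, whose proteins sit near the mRNA exit, and Rps9, whose protein sits at the entry, were among those lower. Rps28 had 1272, 1025, 988 and 1037 in TAC+JP2NT libraries, against 1427, 1536, 1289 and 1250 in TAC+GFP (log2 difference -0.35, SE 0.083, adjusted p = 0.0246). The libraries of the groups overlapped, and the call was lost in 5 alternatives: with only these groups in the fit (adjusted p = 0.0989), with replicates 1 and 2 of each TAC group averaged (adjusted p = 0.063), and without TAC+GFP replicate 1, without TAC+GFP replicate 2 and without TAC+JP2NT replicate 2, with adjusted p-values of 0.0653 to 0.0881. Rps26 was at 1243 ± 131 in TAC+JP2NT and 1525 ± 110 in TAC+GFP (n = 4 each; log2 difference -0.30, adjusted p = 0.0435), a call lost in 14 alternatives, 9 of them leaving out 1 library. In the 60S subunit Rpl4, Rpl10 and Rpl21 were lower besides Rpl3, with log2 differences of -0.22, -0.24 and -0.24 in that order. Rpl10, which joins the 60S subunit late and is needed for subunits to pair, was at 4578 ± 341 in TAC+JP2NT and 5397 ± 261 in TAC+GFP (n = 4 each; adjusted p = 0.0338), a call lost in 12 alternatives, 8 of them leaving out 1 library. Over the leave-outs that ended a call the adjusted p was 0.0598 to 0.115 for Rps26 and 0.0516 to 0.116 for Rpl10. Of the stalk, Rplp1 had 3779, 3544, 3551 and 3931 in TAC+JP2NT libraries, against 4250, 4500, 4645 and 4867 in TAC+GFP (log2 difference -0.30, SE 0.0573, adjusted p = 0.00862). All 4 libraries with JP2NT were below all 4 with GFP, and the call was lost with only these groups in the fit (adjusted p = 0.0603).

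Between vectors in sham hearts 0 members were called, as were 0% of all genes, with 1 member, Rpl34, at an unadjusted p under 0.05 and 561 genes in all (limma). The median core difference of Sham+JP2NT minus Sham+GFP was -0.02. The difference of the TAC effects under the 2 vectors was tested as an interaction, and 0 members were called, where 0.0757% of all genes were, 0.0378% higher and 0.0378% lower. At an unadjusted p under 0.05 there were 9 members, all core, and 1484 genes. The median core interaction was -0.18, against 0.0044 for all genes, and 2 of 75 core genes were above 0. Rpl3 had the smallest unadjusted p of the members, with an interaction of -0.47 on the log2 scale (95% interval -0.69 to -0.24, adjusted p = 0.111), rank 54 of 13211 genes by p. With 14 separate libraries, or with the spread estimated per group, it passed (adjusted p = 0.0348 and 0.0356), as it did without TAC+GFP replicate 3 (adjusted p = 0.0312).

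The muscle paralogue and its partner moved apart in overloaded hearts. Rpl3l (chromosome 17, 24727820 to 24736143, plus strand) had 2038, 1924, 1350 and 2191 in TAC+JP2NT libraries and 1354, 1098, 1692 and 1328 in TAC+GFP, against 3313, 3383 and 3413 in Sham+JP2NT and 3333, 3399 and 3220 in Sham+GFP. Every TAC library was below every sham library. The log2 difference was -1.29 in TAC+GFP against Sham+GFP (SE 0.147, adjusted p = 9.15e-06) and -0.87 in TAC+JP2NT against Sham+JP2NT (SE 0.167, adjusted p = 0.0016). Rpl3 (chromosome 15, 80077791 to 80091868, minus strand) had 4544, 3943, 4046 and 4238 in TAC+JP2NT libraries and 6057, 6343, 5320 and 5848 in TAC+GFP, against 3057, 3099 and 3137 in Sham+JP2NT and 3212, 3076 and 3193 in Sham+GFP. The groups kept apart in every library: TAC+GFP was highest, TAC+JP2NT next and both sham groups lowest. Rpl3 differed by 0.90 in TAC+GFP against Sham+GFP (SE 0.0687, adjusted p = 3.75e-07) and by 0.43 in TAC+JP2NT against Sham+JP2NT (SE 0.0779, adjusted p = 0.00115). In TAC+JP2NT against TAC+GFP it was lower, with a log2 difference of -0.49 (SE 0.0636, adjusted p = 0.00121), rank 17 of 13211 genes by p, and it was called under each alternative tried. Rpl3l differed by 0.45 in that comparison (95% interval 0.16 to 0.74, adjusted p = 0.0654), and its libraries overlapped through TAC+JP2NT replicate 3 and TAC+GFP replicate 3. Rpl3l was called without the first of these libraries (adjusted p = 0.0054) or without the second (adjusted p = 0.0224) and scaled to the library total (adjusted p = 0.0377).

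**Figure D4:**
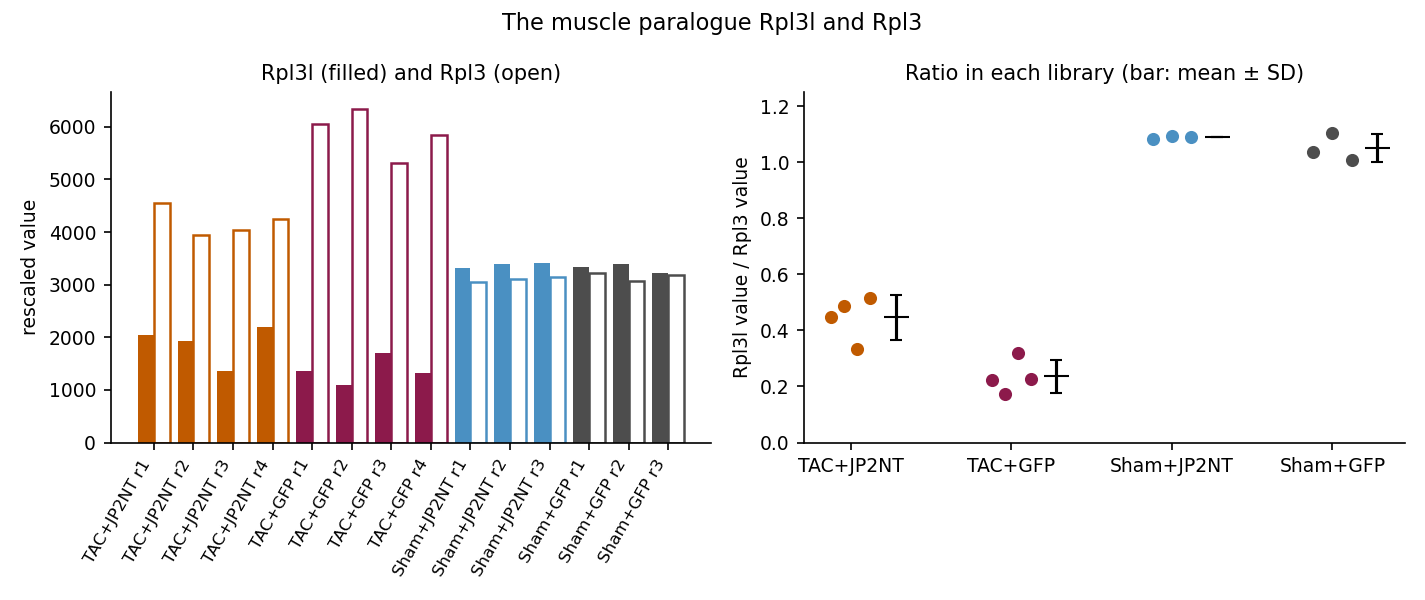
Left, rescaled values of Rpl3l (filled bars) and Rpl3 (open bars) in the 14 libraries; right, their ratio in each library (points) with the group mean ± SD (Sham+JP2NT with replicates 1 and 2 averaged). The ratio averages 0.447 in TAC+JP2NT, 0.236 in TAC+GFP, with 1.09 in Sham+JP2NT and 1.05 in Sham+GFP.

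The ratio of Rpl3l to Rpl3 within a library does not depend on library scaling. It averaged 0.447 ± 0.0804 in TAC+JP2NT (SD, n = 4), 0.236 ± 0.0604 in TAC+GFP (n = 4), with 1.09 in Sham+JP2NT (n = 2) and 1.05 ± 0.0495 in Sham+GFP (n = 3). Per kilobase of transcript the 2 genes were thus close to equal in sham hearts, with a ratio of 1.03 ± 0.0486 in Sham+GFP. The mean log2 ratio differed by -2.19 in TAC+GFP against Sham+GFP (two-sided exact permutation p = 0.0286, adjusted over the 4 ratio comparisons 0.0571). It differed by -1.30 in TAC+JP2NT against Sham+JP2NT (exact permutation p = 0.0667, adjusted 0.0889) and by 0.94 in TAC+JP2NT against TAC+GFP (exact permutation p = 0.0286, adjusted 0.0571). The p-values of the TAC comparisons with sham are the smallest that 4 against 3 and 4 against 2 samples allow, and that of the TAC groups is the smallest of 4 against 4, and in each the ratios of the groups did not overlap. Between vectors in shams the difference was 0.05 (exact permutation p = 0.4). Rpl3l made up 30.7% of the sum of both genes in TAC+JP2NT, 18.9% in TAC+GFP, with 52.1% in Sham+JP2NT and 51.2% in Sham+GFP. The sum itself varied less: it was 6069 ± 544 in TAC+JP2NT, 7260 ± 204 in TAC+GFP, with 6488 ± 87.1 in Sham+JP2NT and 6478 ± 65.8 in Sham+GFP.

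In no other paralogue pair with both rows tested was 1 called higher and the other lower in a TAC comparison with sham. Pairs with Rps27, Rpl10l, Rpl32l or Rpl39l could not show this, since those rows were not tested. Of the 8 paralogue rows tested, 2 rose and 1 fell in TAC+GFP, and 3 rose and 1 fell in TAC+JP2NT. Rps27l, a target of p53, had 1212, 723, 787 and 1114 in TAC+JP2NT libraries and 936, 912, 1221 and 774 in TAC+GFP, against 513, 503 and 521 in Sham+JP2NT and 670, 555 and 561 in Sham+GFP. All TAC libraries were above all shams, and the log2 difference was 0.86 under JP2NT (SE 0.194, adjusted p = 0.00437) and 0.68 under GFP (SE 0.171, adjusted p = 0.00468). Rpl22, an RNA-binding 60S protein, rose by 0.50 under JP2NT (SE 0.093, adjusted p = 0.00142) and by 0.66 under GFP (SE 0.082, adjusted p = 2.03e-05). Its paralogue Rpl22l1, which Rpl22 is known to restrain in mouse cells, was at 338 ± 66.3 in TAC+JP2NT, 347 ± 75.8 in TAC+GFP, with 265 ± 24.9 in Sham+JP2NT and 282 ± 26.7 in Sham+GFP and was not called (log2 difference 0.27 under GFP, 95% interval -0.09 to 0.64). Rpl7l1, a protein resembling RPL7, was called under JP2NT at 0.36 (adjusted p = 0.0206), a call lost in 5 alternatives, and differed by 0.05 under GFP (95% interval -0.15 to 0.26). Rpl7 itself rose by 0.28 under GFP (adjusted p = 0.0032) and differed by 0.06 under JP2NT. Rps4l, which GENCODE lists as a transcribed pseudogene, differed by -0.13 under GFP and its partner Rps4x by 0.03, neither called. Rpl39l reached no more than 9.11 in any library.

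Near-identical copies carry most of the reads of some core genes. Rps27 was listed at 0 to 15.6, while Rps27rt, whose coding sequence is printed beside it above, had 3736, 2592, 2370 and 3553 in TAC+JP2NT libraries, 3075, 3230, 4037 and 2867 in TAC+GFP, with 2151, 2235 and 2162 in Sham+JP2NT and 2276, 2160 and 2125 in Sham+GFP. Which of the 2 genes was transcribed cannot be read from these values. Rpl34 averaged 117 in TAC+GFP and 94.6 in Sham+GFP, and its copy Rpl34-ps1, which differs from it at 2 of 351 bases, averaged 2146 in TAC+GFP and 1226 in Sham+GFP. Rpl26 averaged 203 ± 58.7 in TAC+GFP and 110 ± 55 in Sham+GFP, with overlapping libraries, beside a copy, Gm15772, that holds most of the sum. Summed with their copies, Rps27, Rpl34 and Rpl26 rose in TAC+GFP, by 0.58 (adjusted p = 0.00377), 0.75 (adjusted p = 0.00147) and 0.50 (adjusted p = 0.00117). Rpl30 with Gm12191 and Gm5481 was not called, at 0.08 (adjusted p = 0.474). The single-row values of 0.30 for Rpl34 and 0.99 for Rpl26 under GFP, and of 0.94 for Rpl34 under JP2NT, are uncertain for this reason. The Rpl34 difference between shams is uncertain in the same way. Summed with its copy, Rpl34 rose by 0.54 in TAC+JP2NT against its sham (limma, adjusted p = 0.0354). In Sham+JP2NT minus Sham+GFP that sum differed by 0.0041 (limma, adjusted p = 0.998). The Rpl26 call was lost in 8 alternatives, and without Sham+GFP replicate 2 its difference was 0.48 (adjusted p = 0.291). The summing was chosen after the data were seen, and it left 54 members higher and 2 lower in TAC+GFP.

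**Figure D5:**
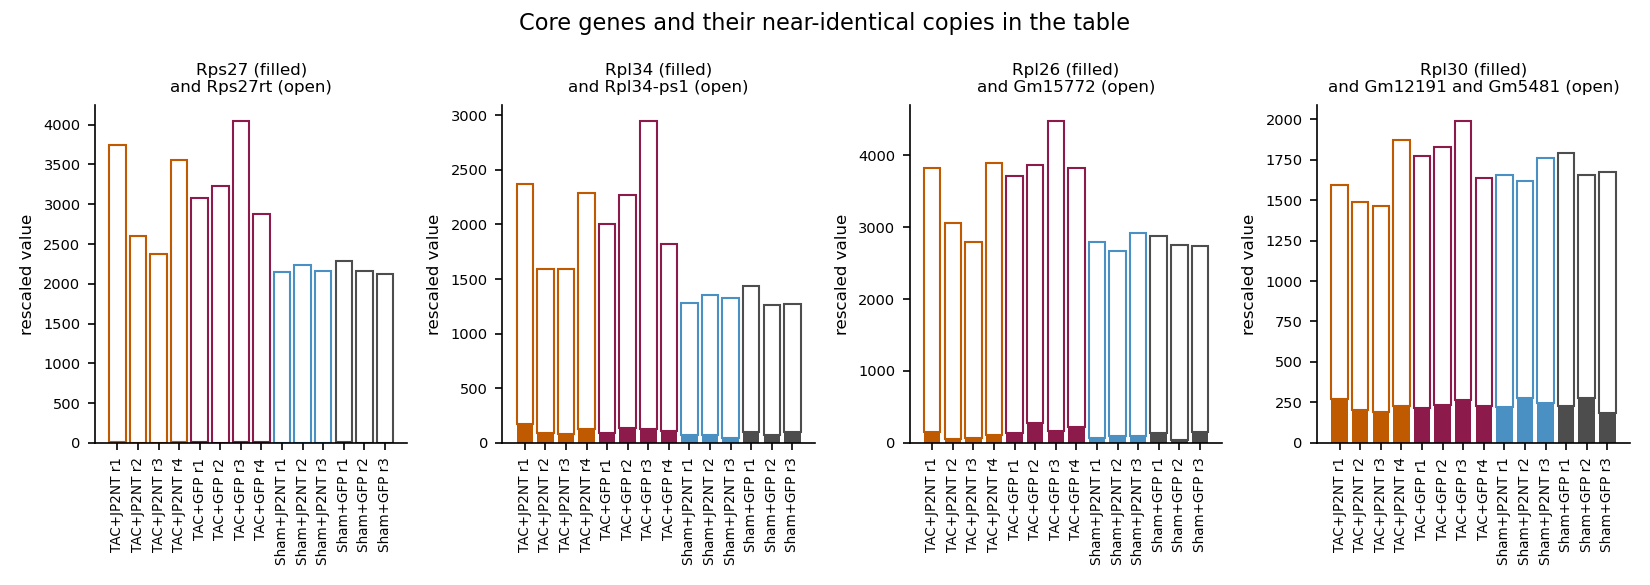
Rescaled values of 4 core genes (filled) stacked under those of their near-identical copies in the table (open), in each of the 14 libraries. The filled part is a small share of each bar, and for Rps27, Rpl34 and Rpl26 the summed bars of all TAC+GFP libraries exceed those of all Sham+GFP libraries.

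Promoter windows of 250 bases before to 50 after the start were found for 68 members, 56 of them core. A run of at least 8 C or T within 20 bases of the start was present in 46.4% of the 56 core windows, against 15.9% of the 27025 windows of all genes. The letters CGGAAG, which ETS factors recognise, were present on either strand in 69.6% of core windows, against 17.2% of all windows. CACGTG, the E-box letters, stood in 8.93% of core windows and 7.24% of all, and TATAAA in 8.93% of core windows and 14.2% of all. Of the 25 tested core genes with a run of at least 8, 18 rose in TAC+GFP and 0 fell, with a median log2 difference of 0.36. Of the 30 with a shorter run, 21 rose and 1 fell, with a median of 0.45. Across core genes the log2 difference under GFP had Pearson correlations of -0.02 with the length of the run (55 genes), 0.05 with transcript length, -0.17 with GC content and -0.20 with the Sham+GFP value (75 genes each). These are descriptions of genes measured in the same libraries, and a run near the annotated start need not be the TOP tract.

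Other genes of translation were counted by list, against all genes tested, of which 23.1% were higher and 25.2% lower in TAC+GFP, 15.4% and 16.8% in TAC+JP2NT against its sham, and 2.7% and 3.5% in TAC+JP2NT against TAC+GFP. Of 20 further genes whose mRNAs carry TOP tracts, 9 rose and 2 fell in TAC+GFP (median 0.19), 1 rose and 4 fell in TAC+JP2NT against its sham (median 0.08), and 3 were lower in the TAC+JP2NT to TAC+GFP comparison (median -0.18). Eef1a1, the factor that brings aminoacyl-tRNA to the ribosome, rose by 0.78 under GFP (SE 0.0793, adjusted p = 3.64e-06) and by 0.30 under JP2NT (SE 0.0899, adjusted p = 0.021). It was lower, with a log2 difference of -0.38 in TAC+JP2NT against TAC+GFP (SE 0.0734, adjusted p = 0.00874). Fau, whose product is a 40S protein fused to a ubiquitin-like domain, rose by 0.56 under GFP (adjusted p = 0.000525). Eef2, the translocation factor, was lower in TAC+JP2NT than in Sham+JP2NT (log2 difference -0.48, adjusted p = 0.000678) and than in TAC+GFP (log2 difference -0.36, adjusted p = 0.00727). Of 34 ribosome assembly factors 10 rose and 4 fell in TAC+GFP (median 0.16), with Nip7 at 0.93, Gnl3 at 0.60 and Nop58 at 0.59 highest. Under JP2NT 5 rose and 2 fell. Of 15 genes of RNA polymerase I, which makes ribosomal RNA, 2 rose and 2 fell under each vector, and the catalytic subunit gene Polr1a was lower, with a log2 difference of -0.84 under JP2NT (adjusted p = 0.000133) and of -0.74 under GFP (adjusted p = 2.71e-05).

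Of 14 genes of mTORC1 and its TOP regulators, 3 rose and 8 fell in TAC+GFP (median -0.23), and 1 rose and 5 fell in TAC+JP2NT against its sham (median -0.22), where 23.1% of all genes were higher and 25.2% lower under GFP, and 15.4% and 16.8% under JP2NT. Chosen after their values were seen, Rptor and Mtor, which encode the scaffold and the kinase of mTORC1, fell under both vectors, at -0.41 and -0.41 under JP2NT and -0.51 and -0.33 under GFP. Tsc2, a repressor of mTORC1, fell too, at -0.46 under JP2NT and -0.53 under GFP. Eif4ebp2, a further repressor of cap-dependent translation, fell by 0.84 under GFP (SE 0.0894, adjusted p = 5.1e-06) and was higher by 0.32 in TAC+JP2NT against TAC+GFP (adjusted p = 0.0341). Eif4ebp1, which encodes a repressor of cap-dependent translation that mTORC1 inactivates, rose by 0.82 under GFP (SE 0.0846, adjusted p = 4.14e-06). It was lower, with a log2 difference of -0.76 in TAC+JP2NT against TAC+GFP (SE 0.0783, adjusted p = 0.000234), and its interaction was -1.06 (SE 0.128, adjusted p = 0.00869). Myc, a transcription factor for ribosome genes, rose by 1.30 under GFP (SE 0.253, adjusted p = 0.000726) and differed by 0.13 under JP2NT (adjusted p = 0.762). Protein genes of the mitochondrial ribosome had the opposite sign of median. Of 78 genes 7 rose and 27 fell in TAC+GFP (median -0.16). In TAC+JP2NT against its sham 6 rose and 12 fell (median -0.05). The shares of all genes were the same as above. Mrpl38 and Mrpl4 fell, at -0.79 and -0.66 in TAC+GFP and -0.45 and -0.49 in TAC+JP2NT against its sham. Mrpl33, Mrpl53 and Mrpl20 rose, at 0.83, 0.65 and 0.55 in TAC+GFP and at 0.76, 0.64 and 0.75 in TAC+JP2NT against its sham. Between the TAC groups the median of the 78 was 0.03. Whether these genes differ from those of the cytosolic ribosome was not tested.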

How the data were processed

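Per the labels' protocols, polyadenylated RNA was made into stranded libraries and sequenced paired-end. FastQC 1.0.0, STAR 2.6.1a, Salmon and build mm10 are named in the submitters' processing notes. The deposited signal values are estimated gene counts that the authors had divided by scale factors, separately for the GFP and the JP2NT libraries, as far as the values show; whole reads could not be recovered from them. Dates stood in place of 26 gene names, and 2 names occurred more than once.

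The 14 libraries were rescaled jointly by trimmed means (30% of ratios, 5% of levels), kept where 3 or more of 13 samples reached 10, and compared as log2(value + 1) with limma 3.58.1 in R 4.3.3 (limma-trend, all groups, 9 residual degrees of freedom, Benjamini-Hochberg adjustment over 13211 genes, threshold 0.05). The fit was tested on simulated data. Ratios were compared by exact permutation (scipy 1.17.1). Copies needed 95% identity over 80% of the transcript and at least 150 bases (BLAST 2.17.0, GENCODE M21). Intervals are 95%. Core medians include the 3 stalk genes.

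Named were Rpl3, Rpl3l, other paralogue pairs, stalk genes, up to 5 members called in each direction and comparison, and up to 3 genes per list. Rpl4, Rpl5, Rpl8, Rpl11, Rpl21, Rps6, Rps9 and Rps24 and the genes with copies fall outside this rule and were chosen after their values were seen. The members and lists were chosen with earlier results of these data known. Alternatives covered scaling, pseudocount, filter, the samples fitted, the replicate block and each library left out. Single values of 2 members are not reported here.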

Additional observations from a re-analysis of the deposited data

How the results depend on the processing

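The 2 to 4 samples per group and the copies of these genes limit the precision. Over all alternatives, 550 of 592 recomputed values that answer a comparison kept their direction and side of the threshold or stayed near their size; of the rest 18 moved, 14 lost and 9 gained a call, and 1 reversed. For single members 657 of 728 recomputed values kept their call and 71 lost it. These members were taken because they were called, so a call could be lost but not gained. Leaving out a library of a group not compared leaves the log2 difference unchanged, so part of both tallies was fixed in advance. Leaving out Sham+JP2NT replicate 3 leaves 1 sham sample, taken to vary like the other groups. Scaled to the library total the median of all genes moved by 0.12 in TAC+JP2NT minus Sham+JP2NT, the core median in TAC+GFP minus Sham+GFP was 0.44, and 42 members were higher and 1 lower in TAC+JP2NT against its sham, where 26 and 4 were called before. With only the groups compared in the fit, 9 members were called there and 1 in TAC+JP2NT minus TAC+GFP. In the last comparison 30 were called with values as deposited, 6 with values scaled to the library total (1 higher, 5 lower), 2 with TAC replicates 1 and 2 averaged, and 21 without TAC+GFP replicate 3 and TAC+JP2NT replicate 1 together, a choice made after seeing the data. Leaving out 1 library at a time gave 46 to 60 members in TAC+GFP minus Sham+GFP, 8 to 40 in TAC+JP2NT minus Sham+JP2NT and 3 to 23 in TAC+JP2NT minus TAC+GFP. The core medians were 0.31 to 0.37, 0.06 to 0.25 and -0.28 to -0.11 in the same order. For the fits that changed the samples, the share of all genes called was not set beside the member counts. Whether those counts moved apart from all genes cannot be told from them.

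Rpl3l in TAC+JP2NT minus TAC+GFP was 0.50 scaled to the library total (adjusted p = 0.0377) and 0.45 with 14 separate libraries (adjusted p = 0.048), with a range of 0.35 to 0.60 when 1 library was left out. In shams, values as deposited gave a core median of -0.10 and turned the sign of Rpl3l to -0.052 (adjusted p = 0.951); scaled to the library total the core median was -0.0013. The interaction called 1 member, Rpl3, with 14 separate libraries (-0.46), with the spread per group (-0.47) and in the joint leave-out (-0.55, adjusted p = 0.0211), and 0 to 1 members when 1 library was left out, with Rpl3 at -0.51 to -0.43. When 1 library was left out, the log2 ratio of Rpl3l to Rpl3 was -2.35 to -2.05 in TAC+GFP minus Sham+GFP. There fewer samples raise the smallest possible exact permutation p. In TAC+JP2NT minus TAC+GFP it was 0.80 to 1.09, and the smallest possible p stayed at 0.0286. The exact permutation p was 0.0571 there without TAC+GFP replicate 1, 2 or 4, or without any 1 of the TAC+JP2NT replicates. The log2 ratio was -1.30 in TAC+JP2NT minus Sham+JP2NT with 14 libraries (exact permutation p = 0.0286). Same-numbered libraries of different groups had correlations of -0.171 to 0.0765 in their deviations from the group means. Libraries of different number were not correlated for reference, so whether replicate numbers pair the samples cannot be told from this. With the replicate block 55, 35, 10, 0 and 0 members were called in the 5 comparisons in the order of the report. The share of all genes called was not set beside these counts either. The causes of these moves were not tested.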

Other observations

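The members called lower in TAC hearts under both vectors, Rps2 and Rpl3l, lie 5890 bases apart on the same strand of chromosome 17 (mm10), which was seen after their values. Within 50000 bases of them 15 genes are annotated and 7 were tested, these 2 included. The pair was chosen for being lower, so it is left out of the counts. Of the other 5 tested, 1 was lower and 0 higher in TAC+JP2NT against Sham+JP2NT, where 16.8% of all genes were lower and 15.4% higher, and 2 were lower and 1 higher in TAC+GFP against Sham+GFP, where 25.2% of all genes were lower and 23.1% higher (limma, adjusted p). Ndufb10, a subunit gene of respiratory complex I that lies between them on the other strand, differed by -0.26 under JP2NT (adjusted p = 0.0811) and by -0.33 under GFP (adjusted p = 0.00933). Tbl3, a gene of small subunit assembly, was lower, at -0.38 under JP2NT (adjusted p = 0.0137) and -0.57 under GFP (adjusted p = 0.000161). Msrb1, a methionine sulfoxide reductase gene next to Rpl3l, differed by 0.06 under JP2NT and rose by 0.20 under GFP (adjusted p = 0.0246). Gfer and Zfp598 were not called under either vector.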
